A study of Mus musculus with 72 samples.

Results

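Exon usage was compared between diets in 34 of the 72 libraries of the series, the liver libraries whose file of counts per exon bin is complete. An exon bin is a stretch of a gene that belongs to the same annotated exons along its whole length. The libraries came from C57BL/6 mice fed for 11 days with food lacking methionine and choline (MCD diet) or with an isocaloric control food. The last day passed in constant darkness after 10 days of a 12 h light and 12 h dark cycle, and livers were taken at the 6 circadian times (CT) CT0, CT4, CT8, CT12, CT16 and CT20. There were 16 control libraries (10 male, 6 female) and 18 MCD libraries (12 male, 6 female), 3 at each diet and time except for control CT0, where the files of the 2 males end early and 1 female library remains. Every mouse carried the same strain background, and no allele or drug is named. Replicate numbers 1 and 2 are labelled male and number 3 female, while the protocol text speaks of males alone; the sample labels were followed. By the protocol the mice were 8 to 12 weeks old on arrival and housed singly. Each library is labelled as a replicate, with no animal named, so p-values measure the spread between these libraries.

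Methionine is turned into S-adenosylmethionine, the methyl donor of the cell, by the Mat enzymes, Mat1a in hepatocytes and Mat2a in most other cells. Mat2a RNA carries hairpins in its 3′ untranslated region that the methyltransferase METTL16 binds, and splicing of its last intron is known to follow the level of S-adenosylmethionine. Many liver genes also hold several promoters, each with its own first exon, or polyadenylation sites inside introns, which give short transcripts with an exon of their own at the 3′ end. A count per exon bin reads these events as a change in the share of the gene's counts that a bin holds, apart from the gene's own rise or fall.

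The 34 libraries held 44.9 to 82.6 M bin counts. They fell into 2 kinds by the level of mt-Nd6, a protein gene of the mitochondrial light strand. The level of mt-Nd6, in CPM (counts per M bin counts), was 4.07 to 29.6 in 20 libraries and 204 to 519 in 14, and reads outside all bins made up 3.87% to 4.62% and 9.96% to 14.2%. The high kind held 9 of 16 control and 5 of 18 MCD libraries, so diet and kind overlap in part, and each result is given with the kind as a further term where that changes it. The library labelled control CT08 1 lay in the MCD range for many bins and in the control range for others, and is named where it bears on a value. Hepatocyte markers summed to 100414 to 170933 CPM, and none of the 10 was at 0 in any library; 3 of 10 were higher in mean level on MCD, while the median of their sum was 127416 CPM on control and 148626 CPM on MCD. Markers of macrophages were higher in mean level on MCD for 12 of 12 genes (sum 316 to 944, median 422 CPM on control, 520 to 1407, median 661 on MCD), of stellate cells for 12 of 12 (473 to 1262 and 614 to 1737 CPM), of endothelium for 8 of 8 (343 to 470 and 404 to 593 CPM) and of bile ducts for 6 of 7 (24.3 to 45.6 and 26.0 to 56.9 CPM). Red cell markers were lower for 6 of 6 (52.9 to 244 and 47.7 to 188 CPM), lymphocyte markers were higher for 3 of 8 (1.79 to 16.1 and 1.35 to 11.0 CPM) and neutrophil markers for 4 of 6 (0.056 to 2.24 and 0.16 to 11.8 CPM). These levels were not tested. In bulk tissue, a change in cell numbers and one in RNA per cell cannot be told apart, and the part of these cells in the exon results was not tested.

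Of 13242 genes tested, 515 (3.89%) used at least 1 exon bin differently on the MCD diet by edgeR's exon usage test with Simes and Benjamini-Hochberg adjustment at 0.05, with circadian time and sex as terms. Of the 210458 bins tested, 409 (0.194%) took a higher share of their gene on MCD and 472 (0.224%) a lower one, and 21 (0.00998%) did not overlap between the diets. Adding the kind to the model left 334 called genes (2.52%), of which 314 were among the 515, and the split turned to 348 bins higher and 239 lower. The bin with the smallest p of a called gene, its leading bin, rose in 225 genes and fell in 290. Its change relative to the rest of the gene had a median size of 1.04 on the log2 scale (quartiles 0.72 and 1.48), and its larger mean share had a median of 1.69% of the gene's counts. In 186 genes that share was under 1% and in 65 it was 10% or more. In 364 genes 1 bin was called, and in 25 genes bins were called in both directions. The median size of the log2 change in a gene's total was 0.28 over the 515 genes and 0.29 over all genes tested. The 2 sets differed in level, with a median total of 48.1 CPM and 14.7 CPM, which was not adjusted for.

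Calls were also counted by place in the transcript. Bins are numbered along the chromosome by the deposited files, so bin 1 is the 3′ end of a gene on the minus strand. They were placed in the gene models of GENCODE M21 (build GRCm38) where that model splits into the same number of bins, which held for 12224 genes tested and 478 called. Coding bins were called at 0.171% of 149323, 148 higher and 107 lower. Untranslated parts of protein-coding transcripts were called at 1.06% of 31238 (147 higher, 183 lower), bins of retained-intron transcripts at 1.01% of 10562 (48 and 59), and bins of other noncoding transcripts at 2.13% of 5769 (43 and 80). The leading bin was a last exon in 211 genes (87 higher, 124 lower), a first exon in 155 (73 and 82) and an internal exon in 55 (18 and 37). Of the bins tested at each place, 0.929% of 32061 last, 0.975% of 27275 first and 0.165% of 84109 internal bins were called. Without bins that lie opposite an exon of another gene, described further on, these shares were 0.64%, 0.903% and 0.152%, and the split of last bins turned from 120 higher and 178 lower to 115 and 72. The difference between places was not tested.

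Mat2a, methionine adenosyltransferase 2A, kept less of its last intron on the MCD diet. Its bins 6 to 9 together make up the 585 nt of that intron, which is spliced out of the full-length transcript Mat2a-201 and kept by others. The letters at both ends of the region are shown because the splice sites define the event, with the GT of the donor and the AG of the acceptor in capitals, 5′ to 3′ on the transcript strand, from the GENCODE M21 transcript Mat2a-202.
Mat2a start of the retained region, nucleotides 1196 to 1225: tcattgtcagGTaaagatggtaaaacctat
Mat2a end of the retained region, nucleotides 1771 to 1800: tatggacttgtatattccAGggatctggat

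Bin 9 of Mat2a, the 241 nt next to the donor, held 1.45% to 3.59% of the gene's counts on control (median 2.56%) and 0.23% to 1.44% on MCD (median 0.51%). All 16 control libraries lay above all 18 MCD libraries, the library labelled control CT08 1 (2.03%) included. The mean fell from 2.56% ± 0.59 (SD, n = 16) to 0.57% ± 0.29 (n = 18), at 6 of 6 times, a relative log2 change of -2.22 ± 0.13 (SE; edgeR adjusted p of the gene 1.67e-53). Bins 8, 7 and 6 fell with it, by 2.25, 2.29 and 2.19 on the log2 scale, so that the 4 parts of the intron moved alike. Totals, given here and below as means with no test of their own, were 72.3 ± 13.2 CPM on control and 255.2 ± 60.4 CPM on MCD for Mat2a (3.53-fold), and 1.82 and 1.35 CPM for its bin 9. The change was -2.12 with the kind as a term, -2.29 in the low kind alone (adjusted p = 2.28e-37) and -1.94 in the high kind alone (3.53e-07). Bins 17 and 19, inside upstream introns and part of retained-intron transcripts, fell by 1.02 and 1.50 log2 (bin adjusted p = 0.0102 and 1.69e-09 by edgeR), at shares of 0.27% to 0.14% and 0.48% to 0.17%. Bin 23 fell by 1.34, but it shares its place with Particl, a gene on the opposite strand.

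**Figure D1:**
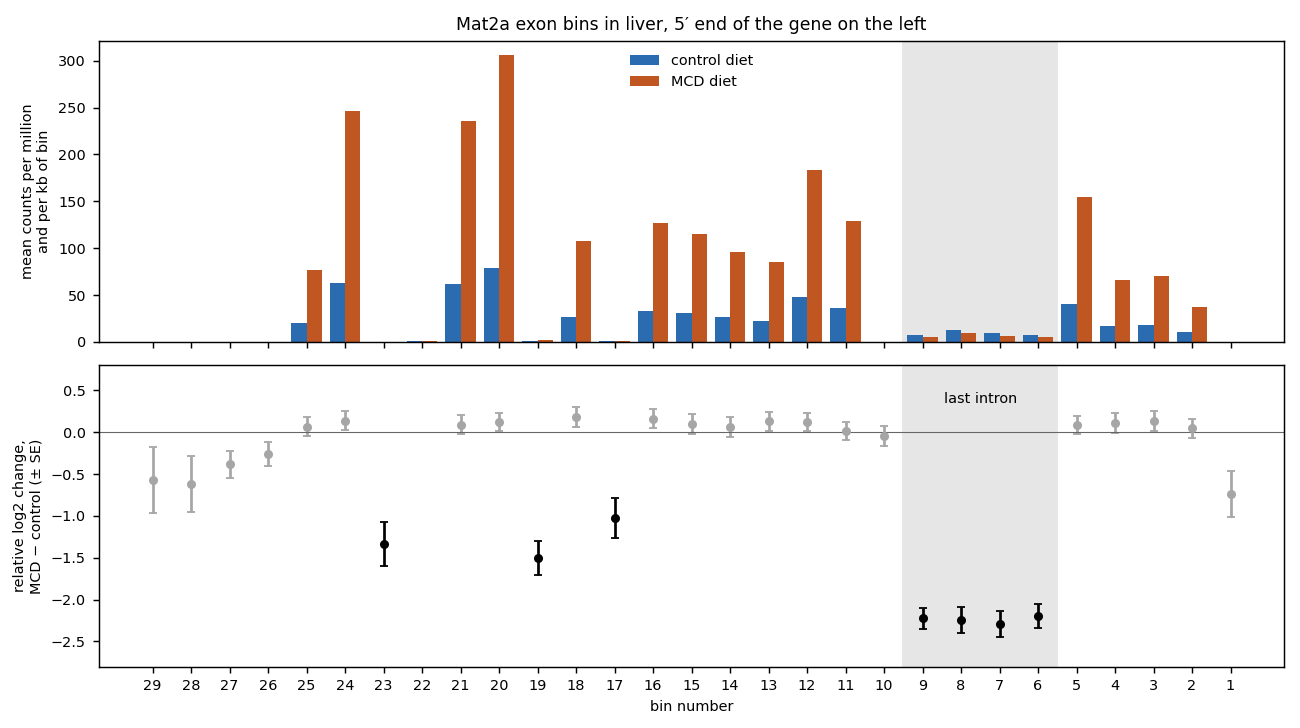
Mat2a bins in liver from the 5′ end (bin 29, left) to the 3′ end (bin 1, right): the upper panel gives mean CPM per kilobase of bin for control (blue) and MCD (orange), the lower panel the relative log2 change ± SE with called bins in black. Bins under 20 nt have no bar. Exon bars are higher on MCD on both sides of the shaded last intron, whose 4 bins lie near -2.2 in the lower panel.

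The hairpins that METTL16 is known to bind hold the letters TACAGAGAA or TACAGAAAA. Mat2a-201, 2804 nt long, held 6 such sites on its own strand, and it was the only one of 21877 genes with 6 or more, while 1762 genes (8.05%) held at least 1. The sites are shown with the motif in capitals, positions counted from the first base of Mat2a-201. The letters are those of hairpins that Mat2a is known to carry, so its rank is not a separate result. A match describes letters, and binding was not measured here.
Mat2a site 1, nucleotides 1340 to 1369: tggcgtaggtTACAGAGAAgccttcaagct
Mat2a site 2, nucleotides 2124 to 2153: ccttgtgataTACAGAGAAgtcacagggca
Mat2a site 3, nucleotides 2303 to 2332: ctggtgtagcTACAGAGAAaccagcttcct
Mat2a site 4, nucleotides 2418 to 2447: atggcgtaagTACAGAGAAgccatcacctc
Mat2a site 5, nucleotides 2529 to 2558: caaggtgtccTACAGAAAAaccttgggtta
Mat2a site 6, nucleotides 2637 to 2666: gctggtgtggTACAGAGAAgccagcttgtt

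Of the 23 tested genes of methionine and methyl-group metabolism, 4 (17.4%) were called, against 3.89% of all genes; neither this list nor those given further on were tested as lists. Besides Mat2a they were Cbs, Aldh7a1 and Dmgdh. Cbs, cystathionine beta-synthase, which takes homocysteine out of the cycle, used its first-exon bin 34 less, 0.70% to 1.07% of counts on control and 0.40% to 0.68% on MCD, without overlap (-0.68 ± 0.10 log2, adjusted p = 5.6e-07). Its total was 456 ± 164 and 470 ± 160 CPM. Aldh7a1, an aldehyde dehydrogenase that also oxidises betaine aldehyde, used the internal untranslated bin 40 more, 0.13% to 0.28% and 0.30% to 0.66%, again without overlap (1.11 ± 0.07, 2e-14). Bin 40 lies opposite an exon of Phax. Dmgdh, dimethylglycine dehydrogenase, was called for bin 11 at a share of 0.02% to 0.04% (1.33 ± 0.33, 0.0372) and missed the threshold with the kind as a term (0.0605) and without single libraries (up to 0.156).

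Some named and listed genes used an end bin of a transcript more on MCD. Over all called genes, more leading last-exon bins were lower (124) than higher (87). Without bins opposite an exon of another gene, called last bins were 115 higher and 72 lower. Dpys, dihydropyrimidinase of pyrimidine breakdown, had the largest change of the named genes that rose. Its bin 14, the 861 nt last exon of a short noncoding transcript, held 0.18% to 0.74% of the gene's counts on control (median 0.39%) and 0.79% to 24.8% on MCD (median 4.96%). No MCD library came down to the control range, and the MCD libraries differed widely among themselves. The means were 0.43% ± 0.15 (SD, n = 16) and 7.60% ± 6.78 (n = 18), a relative log2 change of 3.65 ± 0.16 (SE; edgeR adjusted p = 8.37e-70). In the low and high kinds alone it was 3.27 and 3.63. Bin 1 of Dpys, the long 3′ end of the full transcript, fell from 0.90% to 0.29% (-1.59 ± 0.18). The gene's total was 242 ± 39.8 CPM on control and 94.2 ± 20.4 CPM on MCD, and bin 14 had 1.01 and 6.41 CPM. Among MCD groups the mean share of Dpys bin 14 was 10.9% at CT0, 15.8% at CT4, 9.49% at CT8, 2.23% at CT12, 1.50% at CT16 and 5.71% at CT20. Control groups were at 0.33% to 0.57%.

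Slc44a3, a choline transporter-like protein, used the 2371 nt terminal bin 12 at 3.69% to 13.5% on control (median 6.53%) and 10.8% to 30% on MCD (median 16.4%). The ranges overlapped. Means were 7.25% ± 2.35 and 17.9% ± 5.32 (1.29 ± 0.15 log2, adjusted p = 6e-13), higher at 6 of 6 times, while the gene's total was 7.65 and 5.24 CPM. The call held in the low kind alone (4.62e-08) and not in the high kind alone (0.82 log2, adjusted p = 0.773). Chd9, a chromatin remodeller, used the terminal bin 14 of a noncoding transcript at 10.9% ± 8.07 and 20.0% ± 9.16 (1.15 ± 0.11, 1.24e-19). That share also moved over the day on both diets, 4.28% to 22.1% in control groups and 8.21% to 31.5% in MCD groups, with the highest group means at CT12 and CT16. Chn2, a Rac GTPase-activating protein, used terminal bin 16 at 0.54% ± 0.22 and 1.65% ± 0.78 (1.48 ± 0.13, 1.5e-13). Prodh2, hydroxyproline dehydrogenase, used terminal bin 22 at 0.50% ± 0.07 and 0.95% ± 0.24 (0.90 ± 0.08, 3.95e-11). Cul4a, the scaffold of a ubiquitin ligase, used the 1622 nt end of a retained-intron transcript, bin 6, at 0.65% ± 0.08 and 1.58% ± 0.67 (1.16 ± 0.09, 4.98e-17). Upp2, uridine phosphorylase and with Dpys the second called of 10 tested genes of pyrimidine breakdown (20.0%, against 3.89% of all genes), used terminal bin 4 at 0.32% ± 0.24 and 0.97% ± 0.76 (1.43 ± 0.28, 0.000491). In these genes the share rose at 6 of 6 times and the 2 diets overlapped. Rpl5, a ribosomal protein, used the 950 nt 3′ end bin 21 at 1.86% ± 0.32 and 3.63% ± 0.62 (0.97 ± 0.07, 4.22e-16), where Fam69a lies on the opposite strand.

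Zfp467, Parp16 and 0610031O16Rik used their leading bin less on MCD. Zfp467, a zinc finger protein, used its last coding bin 1 at 1.24% to 5.22% on control and 0.10% to 1.60% on MCD. Only the lowest controls reached into the MCD range, the library labelled control CT08 1 (1.27%) among them, and the change was -1.99 ± 0.18 (adjusted p = 1.6e-19). Its total was 23.9 and 20.0 CPM. Parp16, a mono-ADP-ribosyltransferase of the endoplasmic reticulum, shifted along its length: bins 5, 6, 8, 9 and 10 at the 5′ side fell by 1.30, 1.08, 1.02, 1.02 and 0.65 log2, while bin 11, an exon of a transcript marked for nonsense-mediated decay, rose by 1.18 and the end bin 13 by 0.50. Bin 9 of Parp16 went from 12.6% ± 1.96 to 6.41% ± 2.43 (adjusted p = 1.38e-11), and the total from 18.5 ± 3.58 to 28.3 ± 13.8 CPM. 0610031O16Rik used bin 1 at 6.94% ± 4.14 and 0.86% ± 0.59 (-3.03 ± 0.27, 1.64e-18); its bins could not be placed in a gene model.

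**Figure D2:**
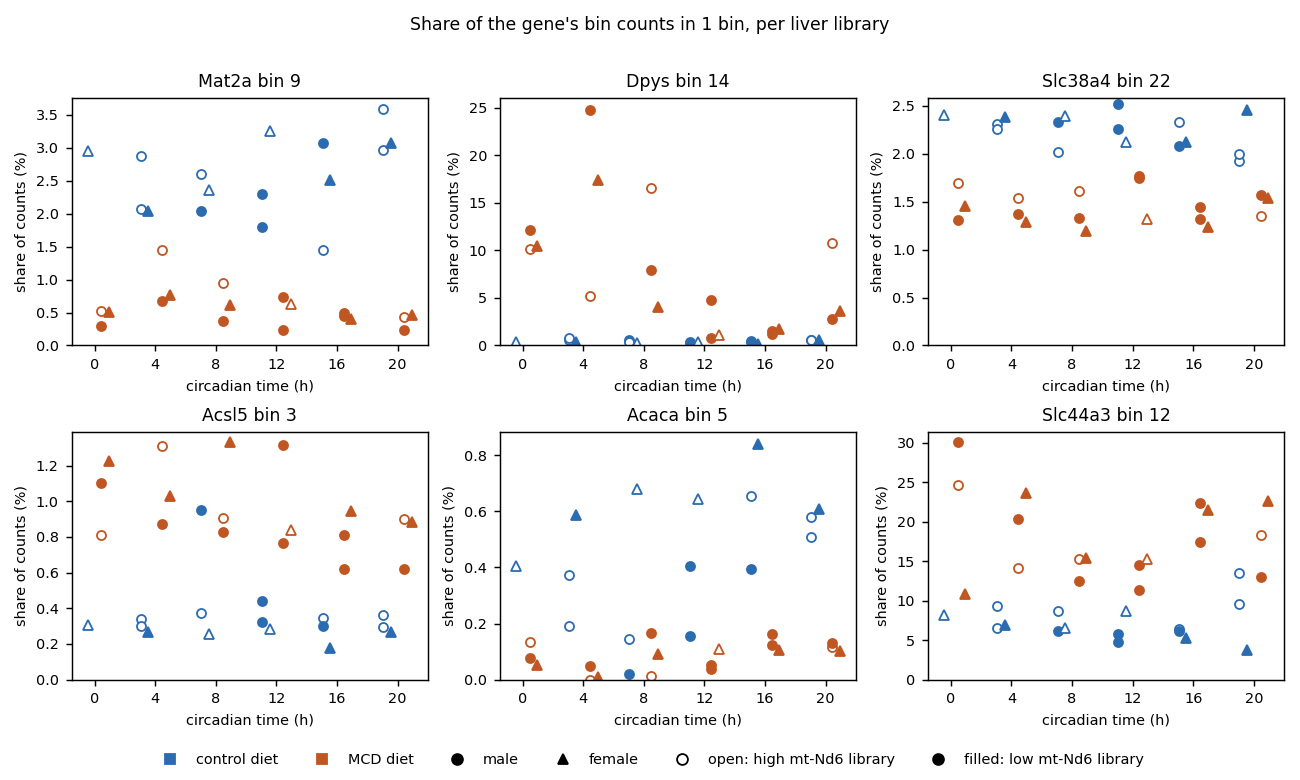
Share of the gene's bin counts (%) in 1 bin of 6 genes against circadian time (h), 1 point per liver library, with diet by colour, sex by shape and mt-Nd6 kind by filling. Mat2a bin 9, Dpys bin 14 and Slc38a4 bin 22 separate the diets fully, and 1 filled control male at CT8 sits with the MCD libraries in the Acsl5 and Acaca panels but not in the Mat2a panel.

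First-exon bins changed share in other named and listed genes, in Slc38a4 and Acaca in both directions. Slc38a4, a sodium-coupled amino acid transporter of hepatocytes, used its main first-exon bin 22 at 1.93% to 2.52% on control and 1.19% to 1.77% on MCD, without overlap (-0.64 ± 0.11 log2). Rare first exons took more: bin 24 rose from 0.01% to 0.08% (3.32 ± 0.24, adjusted p of the gene 4.01e-32), bin 21 from 0.01% to 0.06% (2.32 ± 0.24) and bin 20 from 0.10% to 0.26% (1.40 ± 0.13). These further bins of Slc38a4, like those of Acaca and Scd1 given here, were picked after their values were seen. In CPM, bin 22 of Slc38a4 went from 19.3 to 9.10 and bin 24 from 0.087 to 0.554, so the rare first-exon bin stayed far below the main one. For bin 24 the library labelled control CT08 1 (0.07%) lay above the other controls, which reached 0.014%.

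Acaca, acetyl-CoA carboxylase 1 of fatty acid synthesis, used the first-exon bin 5 at 0.02% to 0.84% on control (median 0.46%) and 0% to 0.17% on MCD (median 0.10%). The lowest control was the library labelled control CT08 1, and the next lay at 0.14%, still within the MCD range. Bin 5 of Acaca changed by -2.38 ± 0.24 (adjusted p = 2.22e-18) and bin 4 by -1.62 ± 0.35, while bin 7, the first exon of other transcripts, rose by 0.86 ± 0.21. The gene's total went from 470 ± 207 to 216 ± 61.6 CPM, and bin 5 from 2.51 to 0.20 CPM against 1.14 to 0.99 CPM for bin 7. In the high kind alone the change of bin 5 was -2.21 and the gene missed the threshold (adjusted p = 0.132).

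Acsl5, an acyl-CoA synthetase, used bin 3, the 798 nt first exon of 1 transcript, at 0.18% to 0.95% on control (median 0.30%) and 0.62% to 1.33% on MCD (median 0.89%). The control at 0.95% was the library labelled control CT08 1; the other 15 controls reached 0.44% and did not overlap with MCD. The change was 1.48 ± 0.09 (adjusted p = 7.54e-39), with 1.39 in the low and 1.57 in the high kind, and the gene's total went from 819 ± 201 to 422 ± 29.1 CPM. Acsl5 was the 1 called of 14 tested acyl-CoA synthetases and carriers (7.14%, against 3.89% of all genes). Lipc, hepatic lipase, used first-exon bin 14 at 0.20% to 0.99% and 0.57% to 1.88% (1.26 ± 0.13, 9.83e-17), and Slc19a2, a thiamine transporter, first-exon bin 2 at 0.20% to 1.36% and 0.68% to 2.60% (1.50 ± 0.17, 1.06e-12). The highest control of Slc19a2 was again the library labelled control CT08 1. Sc5d, a desaturase of cholesterol synthesis, used first-exon bin 8 less, 0.40% to 1.09% and 0.17% to 0.41% (-1.31 ± 0.12, 1.85e-18), and its total went from 553 ± 155 to 276 ± 61.7 CPM. Dcakd, which holds a dephospho-CoA kinase domain, used its 5′ bins 8, 9, 10 and 12 less, of which bin 12 is a first exon. Its leading bin 10, internal or last by transcript, was at 9.21% ± 2.63 and 3.64% ± 0.99 (-1.30 ± 0.12, 5.74e-19), and apart from the library labelled control CT08 1 (2.70%) the diets did not overlap.

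**Figure D3:**
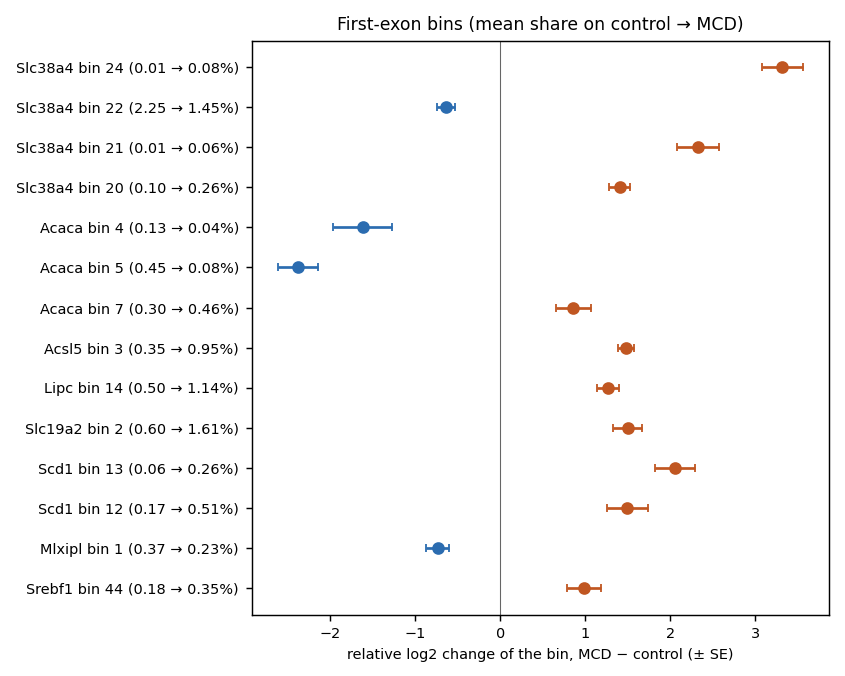
Relative log2 change ± SE (MCD minus control, n = 18 and 16 libraries) of 14 first-exon bins in 8 genes, with the mean share on control and on MCD beside each name and colour marking the direction. Within Slc38a4 and Acaca some first exons lie to the right of 0 and others to the left.

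The 250 bases before the start of 5 of these first exons are shown because their bins changed share. Counts per bin do not measure where transcription starts. Of 21 named or listed leading bins that are first exons, 11 have a RefSeq start of their gene within 50 nt. Of the 5 shown, 4 are among them, with bin 22 of Slc38a4 added as the main first-exon bin of that gene. RefSeq lists 1 start each for Acsl5 and Slc19a2, 2 for Lipc and 3 for Slc38a4. Sequences are RefSeq's, build GRCm38.p6, 5′ to 3′ on the gene's strand, ending at the base before the start. Capitals mark 5 motifs on either strand. Of 32851 RefSeq promoters of this length, 12.4% hold the TATA motif TATAAA, 33.8% the CCAAT box, 32.7% the GC box GGGCGG, 14% the nuclear receptor motif AGGTCA and 3.45% the stress response motif TGATGNAA.
Acsl5 bin 3, chr19:55253119-55253368, plus strand: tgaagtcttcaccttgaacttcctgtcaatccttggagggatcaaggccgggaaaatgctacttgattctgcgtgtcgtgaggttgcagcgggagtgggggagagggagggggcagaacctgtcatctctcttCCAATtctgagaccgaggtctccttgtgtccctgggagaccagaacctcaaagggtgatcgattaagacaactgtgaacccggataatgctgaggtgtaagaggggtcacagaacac
Lipc bin 14, chr9:70934809-70935058, minus strand: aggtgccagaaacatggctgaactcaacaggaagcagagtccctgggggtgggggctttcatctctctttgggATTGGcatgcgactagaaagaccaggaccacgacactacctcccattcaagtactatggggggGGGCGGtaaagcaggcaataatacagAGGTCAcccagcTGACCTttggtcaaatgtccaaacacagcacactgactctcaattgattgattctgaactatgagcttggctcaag
Slc19a2 bin 2, chr1:164248796-164249045, plus strand: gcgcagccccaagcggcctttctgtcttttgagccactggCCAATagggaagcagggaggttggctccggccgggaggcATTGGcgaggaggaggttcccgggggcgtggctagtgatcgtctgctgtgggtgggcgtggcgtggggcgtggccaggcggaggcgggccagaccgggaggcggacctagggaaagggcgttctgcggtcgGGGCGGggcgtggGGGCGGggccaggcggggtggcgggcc
Slc38a4 bin 24, chr15:97055957-97056206, minus strand: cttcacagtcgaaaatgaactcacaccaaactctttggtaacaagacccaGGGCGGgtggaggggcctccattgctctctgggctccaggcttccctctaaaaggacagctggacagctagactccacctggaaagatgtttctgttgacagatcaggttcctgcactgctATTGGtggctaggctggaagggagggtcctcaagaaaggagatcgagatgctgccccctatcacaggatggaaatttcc
Slc38a4 bin 22, chr15:97031214-97031463, minus strand: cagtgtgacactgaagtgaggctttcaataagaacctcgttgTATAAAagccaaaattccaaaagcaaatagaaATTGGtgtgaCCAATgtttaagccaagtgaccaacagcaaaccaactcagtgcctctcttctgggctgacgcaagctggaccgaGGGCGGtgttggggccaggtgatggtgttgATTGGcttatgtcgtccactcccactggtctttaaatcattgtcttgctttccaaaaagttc
TATAAA was found before Slc38a4 bin 22 alone of these 5, at 208 bases from the start. AGGTCA was found before Lipc bin 14 alone, at 88 bases on the gene's strand and at 76 on the other, and TGATGNAA before none. Letters alone say nothing of the factors that bind there.

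Of 34 tested genes of lipid synthesis and storage, 6 (17.6%, against 3.89% of all genes) were called: Acaca, Scd1, Mlxipl, Srebf1, Elovl2 and Insig2. Scd1, stearoyl-CoA desaturase 1, had a total of 11881 ± 5911 CPM on control and 675 ± 364 CPM on MCD, and its first-exon bins 13 and 12 rose in share, bin 13 from 0.03% to 0.10% on control to 0.17% to 0.38% on MCD without overlap (2.05 ± 0.23, adjusted p = 7.18e-13), bin 12 by 1.50 ± 0.24. In CPM, bin 13 of Scd1 was lower on MCD too, at 6.33 and 1.62, by a smaller factor than the gene. Mlxipl, which encodes the glucose-responsive factor ChREBP, used first-exon bin 1 less (0.37% ± 0.12 and 0.23% ± 0.09; -0.74 ± 0.14, 0.000325), at 4 of 6 times. Srebf1, the sterol-regulated factor of lipid synthesis, used first-exon bin 44 more (0.18% ± 0.08 and 0.35% ± 0.14; 0.99 ± 0.20, 0.00259) and its total went from 886 ± 384 to 374 ± 124 CPM. Elovl2, a fatty acid elongase, used first-exon bin 9 less at 0.04% and 0.02% (-1.27 ± 0.23, 0.00914); without the library labelled control CT08 1 and the dispersion kept, the adjusted p was 0.0761. Insig2, which holds SREBP precursors in the endoplasmic reticulum, used first-exon bin 26 more (0.26% ± 0.21 and 0.47% ± 0.21; 0.90 ± 0.19, 0.00262) and missed the threshold with the kind as a term (0.0582).

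Scd2, a paralog of Scd1, was called with bins in both directions. Bin 5 of Scd2 went from 31.1% ± 6.12 to 6.89% ± 1.82 (-2.11 ± 0.19, adjusted p = 7.76e-19) and bin 11, the 2886 nt 3′ end, from 21.4% ± 7.36 to 46.8% ± 4.72 (1.15 ± 0.17). Neither overlapped between the diets, although control CT08 1 (14.3% and 40.6%) lay next to the MCD range. Bins 7 and 8 fell with bin 5. In CPM, bin 5 of Scd2 lay at 4.97 and 0.58 and bin 11 at 3.21 and 3.93. Whether reads are shared with Scd1 was not tested, and the exon usage of Scd2 is uncertain.

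Amino acid transporters were called in 4 of 23 tested genes (17.4%, against 3.89% of all genes). Besides Slc38a4, Slc38a3, a glutamine transporter, used first-exon bin 47 less (0.11% ± 0.07 and 0.03% ± 0.02; -1.62 ± 0.16, adjusted p = 8.08e-18), at 5 of 6 times. Slc3a2, the heavy chain of several transporters, used first-exon bin 26 less (1.10% ± 0.42 and 0.43% ± 0.20; -1.32 ± 0.22, 7.32e-06) while its total went from 44.2 ± 9.48 to 80.8 ± 25.3 CPM. Slc6a13, a transporter of GABA and taurine, used bin 5 of a retained-intron transcript more (0.24% ± 0.07 and 0.49% ± 0.18; 0.97 ± 0.08, 1.17e-08). Of 17 tested choline and phospholipid genes, Pcyt2, which makes CDP-ethanolamine, was called (5.88%, against 3.89% of all genes; first-exon bin 37, 0.24% ± 0.04 and 0.37% ± 0.07; 0.60 ± 0.09, 0.000174). Of 36 genes with well-known isoforms in liver, 4 (11.1%, against 3.89% of all genes) were called. Numb, a regulator of Notch with a spliced cassette exon, used the internal bin 5 more (1.52% ± 0.39 and 2.50% ± 0.44; 0.69 ± 0.11, 0.00059). Igf1, the growth factor made by the liver, used first-exon bin 1 more at 0.07% and 0.13% (0.92 ± 0.21, 0.0102), and its total went from 435 ± 55.5 to 234 ± 61.2 CPM. Nf2, the tumour suppressor merlin, used bin 5 more (1.03 ± 0.20, 0.0203; 0.0528 with the kind). Without MCD CT16 3 the adjusted p of Igf1 was 0.0563, and without each of 5 single libraries that of Nf2 was 0.0802 to 0.125.

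In the lists of RNA processing genes the called share ran from 0% to 9.52%, against 3.89% of all genes. Of 21 tested SR proteins and their kinases, 2 (9.52%) were called: Srsf1, at bin 8 of a retained-intron transcript (0.71% ± 0.26 and 0.46% ± 0.19; -0.69 ± 0.12, adjusted p = 0.0252), and Srsf5, at the 2 nt bin 3 with a share of 0.02% and 0.05% (1.44 ± 0.30, 0.0334). Both lost the call when some single libraries were left out, up to 0.136 and 0.151. Of 45 other splicing regulators, Rbm10 was called (2.22%), and of 23 genes of the integrated stress response, Psph (4.35%; adjusted p = 0.0597 without control CT12 3 and 0.200 without control CT16 1). None of 17 genes that write, erase or read N6-methyladenosine, 19 of 3′ end processing, 14 of nonsense-mediated decay and 21 of the core clock was called by edgeR. At an unadjusted p under 0.05 there were 0, 1, 0 and 0, limma called 0, 2, 0 and 0, and DESeq2 1, 4, 1 and 3. Over all 13242 genes tested, limma called 651 and DESeq2 1389. The median size of the leading bin's change was 0.28, 0.27, 0.23 and 0.30 in these lists and 0.33, 0.31 and 0.34 for SR proteins, other regulators and the stress response. It was 0.32 over all genes tested, 0.44 for the methionine list, 0.55 for lipid synthesis, 0.52 for amino acid transporters, 0.43 for acyl-CoA synthetases, 0.38 for pyrimidine breakdown, 0.38 for liver isoforms and 0.37 for choline genes.

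Bins that lie opposite an exon of another gene were mostly called lower. Of 7955 such bins, 16 were higher and 160 lower on MCD (2.21% called), against 370 and 269 of 188937 bins with none (0.338%). In 127 called genes the leading bin was of this type, lower in 117, and 24 (18.9%) of these genes were also called with the kind as a term, against 261 of 351 (74.4%) without an exon opposite. Within controls, the leading bin had a higher mean share in the high kind in 117 of the 127 genes, over 4-fold in 90, and within MCD in 117, over 4-fold in 85. For the 351 genes these counts were 177 and 182, with 12 and 7 over 4-fold. The high kind held more control than MCD libraries. Whether reads were counted by strand is not given in the sources used here.

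**Figure D4:**
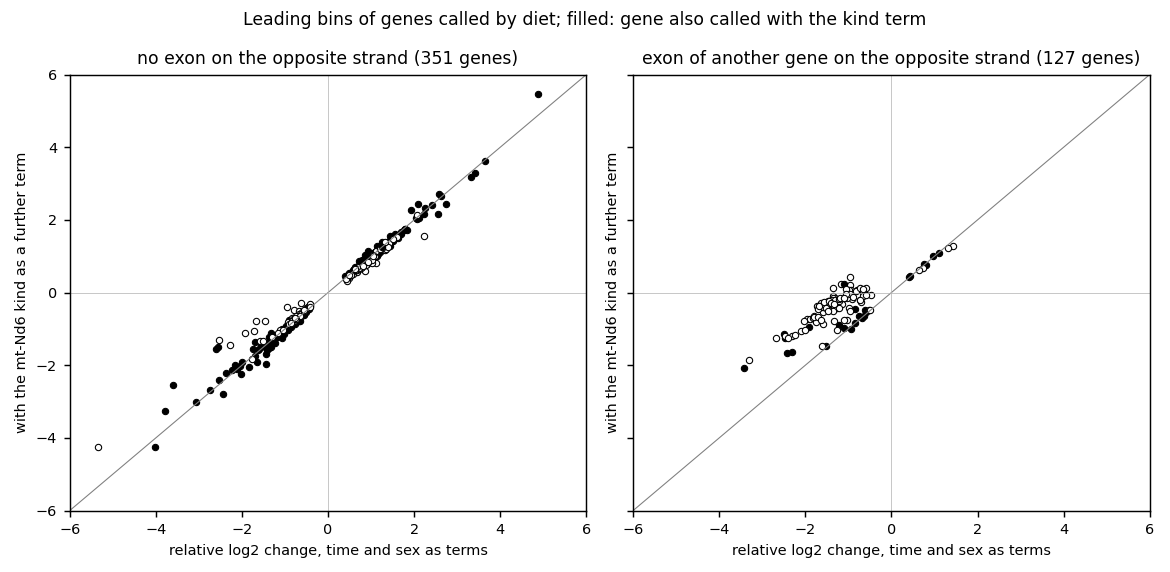
Relative log2 change of the leading bin of 351 called genes with no exon opposite (left) and of 127 with one (right), without (x axis) and with (y axis) the mt-Nd6 kind as a term; filled points are genes also called with it, and the line marks equal values. On the left most points follow the line, and on the right most negative values lie closer to 0 on the y axis.

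Of the 25 named genes, 6 had a leading bin that moved with the kind. Zdhhc6, a palmitoyltransferase whose bin 4 lies opposite Acsl5, held 0.05% in low-kind and 9.68% in high-kind controls, and 0.02% and 4.59% in MCD. Serpinb6a bin 35, opposite Nqo2, held 0.14% and 12.7% in controls and 0.05% and 5.61% in MCD. Their changes were -2.50 ± 0.29 and -2.48 ± 0.25 (adjusted p = 6e-13 and 2.97e-17), -1.15 and -1.24 with the kind, and 0.06 and 0.01 with the log2 level of mt-Nd6 as a term. Dnase2b, a DNA-degrading enzyme, bin 8, Rai1 bin 15, opposite Srebf1, and Gss, glutathione synthetase, bin 21, changed by -3.59, -3.44 and -2.60, and by -2.53, -2.07 and -1.55 with the kind. Nek6, a mitotic kinase, bin 20, opposite Psmb7, went from -0.85 to -0.44. In the low kind alone none of the 6 was called. Rbm10 bin 1 and Psph bin 26, each opposite another gene, lost the call with the kind (adjusted p = 1 for both; -0.40 and -0.35 log2 against -1.53 and -1.54).

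The same comparison in 36 libraries of the suprachiasmatic nucleus (SCN), the seat of the central clock in the hypothalamus, called 5 of 14837 genes (0.0337%; 135 genes with an unadjusted Simes p under 0.05). Of the 25 named genes, 20 were tested there and 0 were called by edgeR (0 at an unadjusted p under 0.05 and 0 by limma). The test of the difference between tissues called 120 of 17060 genes (0.703%), 10 of the 25 among them. It treated liver and SCN libraries as independent, since the labels do not say which came from the same mouse. Mat2a bin 9 stood at 1.04% and 1.03% in the SCN on control and MCD, and the change differed from liver by 1.90 (adjusted p = 5.49e-05). Acsl5 bin 3 stood at 4.04% and 3.83% (-1.56, 0.00207), Chd9 bin 14 at 10.6% and 9.87% (-1.27, 0.000101) and Rpl5 bin 21 at 1.53% and 1.45% (-1.06, 1.18e-05). Sc5d bin 8, nearly unused in the SCN at 0% and 0.02%, differed by 3.73 (0.0451). Tissues also differed in the number and depth of libraries, 18.3 to 67.5 M bin counts in the SCN. The 2 kinds by mt-Nd6 were seen in liver only. In the SCN mt-Nd6 lay at 13.8 to 37.0 CPM on control and 14.7 to 41.4 CPM on MCD. The widest gap between libraries was 0.16 on the log2 scale there and 2.78 in liver. With the kind as a term, the test between tissues called 76 genes.

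**Figure D5:**
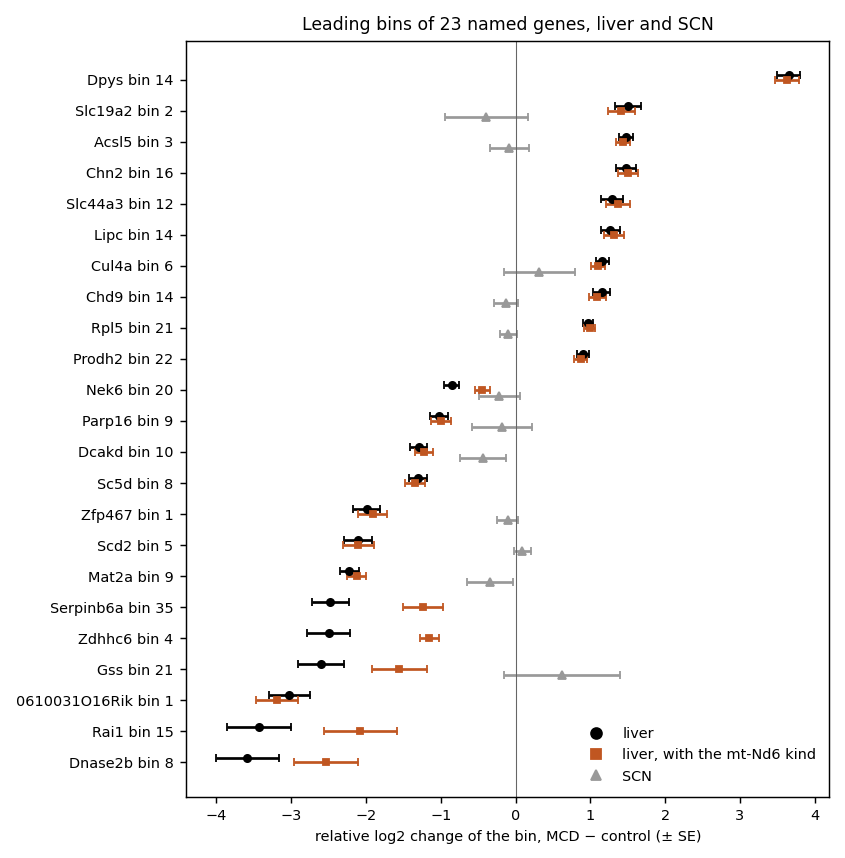
Relative log2 change ± SE of the leading bin of 23 of the 25 named genes in liver (black), in liver with the mt-Nd6 kind as a term (orange) and in the SCN (grey, where the bin was tested). From Dpys at 3.65 to Dnase2b at -3.59, black and orange lie together for most genes and apart for Nek6, Serpinb6a, Zdhhc6, Gss, Rai1 and Dnase2b.

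By sex, the diet effect on exon usage differed in 22 of 13242 genes (0.166%; 131 with an unadjusted p under 0.05). Between CT0 to CT8 and CT12 to CT20, it differed in 17 genes (0.128%; 185 unadjusted). For Dpys bin 14, MCD libraries held 12.1% in the first 12 h and 3.15% in the second against 0.46% and 0.41% in controls, a difference of -2.05 ± 0.27 (adjusted p = 1.23e-08). In the low and the high kind alone this term missed the threshold (0.431 and 1).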

How the data were processed

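RNA was measured by sequencing of polyadenylated RNA with a stranded kit, per the labels' protocols, from the centre of the left liver lobe. The files the authors deposited hold integer read counts per exon bin, 1 file per library, 472109 bins in each complete file, with no normalization. The submitters' processing notes name GRCm39, Trimmomatic, HISAT2, StringTie and DESeq2, without versions; the counting tool, its strand setting and the annotation release are not stated in the labels. The files of control CT00 1 and 2 hold 367608 and 373344 bins and were left out of the main comparison. Gene tables were used for symbols only, and 4 of their per-sample columns were not used.

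Bin counts were tested with edgeR 4.0.16 in R 4.3.3: TMM factors, a quasi-likelihood fit with robust trended dispersion, filterByExpr with a minimum count of 10, and diffSpliceDGE, with diet, 6 times and sex as terms. The relative log2 change is the bin's change minus that of its gene. Bin p-values were joined per gene by Simes and adjusted by Benjamini-Hochberg over all genes, with a threshold of 0.05; bin calls were adjusted over all bins. A share is a bin's counts as percent of the gene's bin counts. limma 3.58.1 and DESeq2 1.42.0 gave alternatives, besides other filters, scalings, terms and left-out libraries. On simulated data for the liver comparison (12931 genes), 75 of 81 genes changed 2-fold and 82 of 82 changed 4-fold were recovered, with 6 false calls. Recovery and false calls were not split by bin share or by mt-Nd6 kind. Whether these counts hold for bins with a small share, or for bins that move with the kind, was not tested. No 2 libraries had identical counts.

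Named are the 25 genes with the smallest adjusted p that were called, also with the kind as a term, and whose leading bin changed by at least 0.5 log2 and held at least 0.5% on 1 diet; the called bin of the opposite direction; every called gene of the lists; and 5 genes in each other test. A few of these are not reported here, and counts over all genes, the lists and the 25 genes include them. The members, lists and rules were chosen with earlier results of these data known. Bins were placed by GENCODE M21 (GRCm38) only where the number of bins was equal, and no bin coordinates are given since the files' build differs.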

Additional observations from a re-analysis of the deposited data

Results flagged for a closer look

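The diet effect on a bin differed between the sexes, the 2 parts of the day or the tissues in the following genes, taken from the 5 with the smallest adjusted p in each edgeR test of the difference. Values are differences of relative log2 changes.

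Female minus male: Gstp1 bin 27, a first exon of a glutathione transferase with near-identical paralogs, differed by -3.03, with 0.10% and 0.15% of counts in control and MCD males and 0.89% and 0.19% in females. Kyat3 bin 5, a kynurenine aminotransferase, differed by -2.97 (males 0.06% and 0.41%, females 0.83% and 0.76%). Ahsg bin 2, a first exon of fetuin-A, differed by -4.49 at shares of 0.02% to 0.04%, and Pitpnb bin 7 by -6.81 (males 0.01% and 0.26%, females 0.38% and 0.13%). In the low mt-Nd6 libraries alone the adjusted p was 0.000906 for Ahsg, 0.839 for Gstp1 and 1 for Kyat3 and Pitpnb. The high libraries hold 1 MCD female, so no value by sex is given for them alone.

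CT12 to CT20 minus CT0 to CT8: Dpys bin 14 differed by -2.05. Rabggtb bin 29, a first exon, differed by 4.90 (0.90% and 0.40% by day on control and MCD, 0.06% and 0.54% by night). Rpl41 bin 7 differed by -4.26 (0.22% and 3.86%, 1.58% and 1.09%), in a ribosomal protein gene with many near-identical copies, so its counts are uncertain. Vmp1 bin 8 differed by -1.49 (0.65% and 0.84%, 1.74% and 0.80%). Itih3 bin 15 differed by 2.17 (0.06% and 0.09%, 0.09% and 0.26%).

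SCN minus liver: Scd2 bin 5 differed by 2.20, at 2.53% and 2.68% in the SCN. Zfp467 bin 1 differed by 1.88, at 10.7% and 10.0% in the SCN. Ndrg2 bin 39, a first exon, differed by 1.25 (liver 0.24% ± 0.10 and 0.10% ± 0.03, SCN 0.53% ± 0.09 and 0.54% ± 0.08). Rpl41 bin 7 differed by -3.57, with spreads larger than the means in both tissues (liver 0.98% ± 2.66 and 2.48% ± 3.73, SCN 2.90% ± 4.75 and 1.44% ± 3.62).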

How the results depend on the processing

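The number of genes called for diet in liver (515) was 334 with the mt-Nd6 kind and 341 with log2 mt-Nd6 as a term, 105 and 100 in the low and high libraries alone (20 and 14 libraries), 304 with a minimum count of 50, 343 and 315 without CT16 and CT20, 801 by the gene-level F test and 1389 by DESeq2, of which 387 were shared. It ran from 200 to 657 over left-out replicates: 416, 291 and 200 without all libraries of number 1, 2 and 3, 657 without control CT08 1 (509 shared), and 431 (without control CT12 3) to 608 (without MCD CT12 3) for single libraries with the dispersion kept. All 25 named genes were called in each of these single leave-outs, 22 by DESeq2, 19 with log2 mt-Nd6, 19 in the low and 21 in the high libraries alone. With log2 mt-Nd6 as a term, Rbm10 bin 1 turned to 0.28, Psph bin 26 to 0.0056, Serpinb6a bin 35 to 0.011 and Zdhhc6 bin 4 to 0.064; Rps24 bin 27 in the SCN turned to -0.62 by limma. The sex test (22 genes) gave 9 in the low libraries alone, 11 by limma and 8 to 30 over left-out replicates; the night test (17) 8 to 19; the SCN test (5) 4 to 6; the tissue test (120) 76 with the kind, 75 by limma and 33 to 136 over left-out replicates. The causes of these differences were not tested. All 36 liver files, on the bins before the early end, gave 581 genes, an alternative chosen after seeing the data. No genes are joined in the files, so that alternative did not apply.

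With the replicate number as a replicate block in place of sex, 512 genes were called for diet in liver, 22 by sex, 18 by night, 6 in the SCN and 104 by tissue, and none of the 45 named or listed leading bins reported here lost its call in liver. Of 15 same-numbered pairs across diets at one time in liver, 14 correlated in their deviations by over 0.1 (lowest -0.11). Among males the median was 0.21 in 10 same-numbered pairs (9 over 0.1) and 0.16 in 10 pairs of different numbers (7 over 0.1). As 1 pair lay under 0.1, the numbers were not taken to pair samples.

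Bins with a small share limit the precision: 186 of the 515 leading bins stayed under 1% of their gene. The 5 SCN calls, in Rps24, Eef1a1, Hnrnpk, Rpl35a and Ppia, lie in genes with many near-identical copies and are uncertain.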

Other observations

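By size of shift in mean share, Bmp8b bin 9 moved most, from 51.2% on control to 11.4% on MCD (-2.67 log2, edgeR adjusted p = 0.0187, 1 with the mt-Nd6 kind as a term). Ugt2b38, a glucuronosyltransferase with close paralogs, used its first-exon bin 6 at 39.6% on control and 76.5% on MCD (1.24 log2, edgeR adjusted p = 0.000529, 0.000994 with the mt-Nd6 kind as a term), and its coding bins 1 to 4 fell by 1.64, 1.80, 1.92 and 1.92. Whether reads are shared with paralogs was not tested, and these shares are uncertain. Mup16, a major urinary protein gene with many near-identical copies, used bin 2 at 12.7% and 33.9% (4.89 log2, 2.41e-05) and is uncertain for the same reason. Hnf4aos, an RNA antisense to the liver factor gene Hnf4a, used bin 6 at 26.5% and 57.2% (1.10, 0.000535; 0.00164 with the kind). Hnf4aos can share reads with the gene on the other strand, since the strand setting of the counting is not stated, and its share is uncertain. Zfp112 bin 4 of a retained-intron transcript went from 42.8% to 23.5% (-0.84, 0.00469; 0.00826).

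The 20 largest moves also held genes with a lower last or first bin on MCD, among them Gins2 bin 1 (51.7% and 26.6%), Ccna2 bin 1 (43.6% and 19.2%), Birc5 bin 5 (34.6% and 13.3%), Psmc3ip bin 1 (28.3% and 8.96%), Itgb3bp bin 18 (33.0% and 15.5%), Donson bin 2 (19.3% and 7.16%), Btg3 bin 1 (30.9% and 9.65%), Gsdme bin 4 (26.1% and 6.51%), Stx3 bin 1 (30.7% and 15.9%) and Zbtb37 bin 1 (39.3% and 25.5%). With the mt-Nd6 kind as a term, Birc5 (adjusted p = 0.0207), Btg3 (0.0456) and Gsdme (0.0164) were called, and Gins2 (0.845), Ccna2, Psmc3ip, Itgb3bp, Donson, Stx3 and Zbtb37 (1 for each) were not. These genes were picked after their values were seen, and the part of the library kind in them was not tested further.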
